A study of Arabidopsis thaliana with 12 samples.

Results

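RDL5 and 6 further papain-like cysteine protease genes were followed in roots of Arabidopsis thaliana, in the *crr* mutant and in the wild type Col-0. The 7 genes, RDL5 (AT4G11320), RDL4 (AT4G11310), RD21A (AT1G47128), RD21B (AT5G43060), RD19A (AT4G39090), XCP1 (AT4G35350) and XCP2 (AT1G20850), were chosen by gene identifier. RDL5 was among them because of its low mean in *crr* under -Pi in these same data, so its values and those of the other members are given as a description with no test. Of the 7 genes 6 were among the 20017 genes of the expression table, and the expression of RDL4 was not analysed here.

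Seedlings spent 7 days on agar plates that had 1 mM phosphate (+Pi) or none added (-Pi), and RNA was taken from their roots. There were 4 groups of 3 libraries, which were *crr* -Pi, *crr* +Pi, Col-0 -Pi and Col-0 +Pi. In the study each replicate was a pool of seedlings, *crr* was a line with a T-DNA insertion in an intron of CRR in the Col-0 background, and the -Pi medium still held some phosphate. The product of CRR is a membrane protein of the CYBDOM family, which the study describes as a ferric reductase. The mean of CRR was -0.11 log2 CPM in *crr* -Pi and -0.38 in *crr* +Pi, against 5.64 in Col-0 -Pi and 5.99 in Col-0 +Pi, which goes with the labels. CPM is the count of a gene scaled to a common library total, and every level below is the authors' mean of a group on the log2 scale. No value of a single library was used, so no spread between replicates can be set beside a difference, and a change in the amount of a cell type cannot be told apart from a change of transcript per cell.

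Papain-like cysteine proteases cut other proteins with a catalytic cysteine. They are made as inactive precursors with a signal peptide and a prodomain, which is removed on the way to the vacuole, the apoplast or other compartments. In plants they act in immunity, senescence, germination and programmed cell death, and cystatins and the serpin SERPIN1 hold them in check. RD21A and RD19A were first described as genes responsive to desiccation, RD21B is the close relative of RD21A, and RDL4 and RDL5 are RD21A-like. XCP1 and XCP2 are proteases of xylem vessels, where they take part in clearing the dying cell.

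The stretch of coding sequence around the catalytic cysteine shows what the 7 genes share and how close RDL4 and RDL5 are. Each run below is 60 bases of the coding strand from 5' to 3', read from the TAIR10.1 reference of RefSeq with the intron between exons 1 and 2 left out, and the capitals mark the codon of the catalytic cysteine.
RDL5: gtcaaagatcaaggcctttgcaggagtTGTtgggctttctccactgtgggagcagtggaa
RDL4: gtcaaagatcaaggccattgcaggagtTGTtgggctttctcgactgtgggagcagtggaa
RD21A: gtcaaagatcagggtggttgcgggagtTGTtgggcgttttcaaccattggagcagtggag
RD21B: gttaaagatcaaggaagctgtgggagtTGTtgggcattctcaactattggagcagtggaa
RD19A: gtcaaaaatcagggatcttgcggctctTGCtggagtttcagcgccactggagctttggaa
XCP1: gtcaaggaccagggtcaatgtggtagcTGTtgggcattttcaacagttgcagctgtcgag
XCP2: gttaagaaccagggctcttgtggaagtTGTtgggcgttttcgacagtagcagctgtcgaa
The stretch was found by a search of the translated sequence for a cysteine, 2 residues of any kind, the catalytic cysteine and a tryptophan, and each of the 7 genes held 1 such place. In RDL5 the capitals stand for residue 168 of 371 and in RDL4 for residue 161 of 364. RDL4 differed from RDL5 at 2 of these 60 bases, RD21B at 11, RD21A at 12, XCP2 at 18, XCP1 at 19 and RD19A at 21. Over the whole protein RDL5 was identical to RDL4 at 90.1% of 364 aligned residues. Its identity was 56.4% with RD21B, 54.6% with RD21A, 49.6% with XCP1, 48.6% with XCP2 and 35.3% with RD19A. RD21A and RD21B were identical at 79.4% of aligned residues, and XCP1 and XCP2 at 70.4%.

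RDL4 and RDL5 lie next to each other on the forward strand of chromosome 4, RDL4 at chr4:6883513-6885517 and RDL5 at chr4:6887166-6889879. Counts of such close copies can be mixed where a read fits both. Of the 1583 windows of 50 bases in the RDL5 transcript, 14 (0.884%) occurred elsewhere in the genome. No window of RD21A, RD21B, RD19A, XCP1 or XCP2 did. The share of reads that the authors' alignment set aside for this reason was not measured. RD21A is at chr1:17282749-17285749, RD21B at chr5:17269310-17272298, RD19A at chr4:18215542-18217616, XCP1 at chr4:16810482-16812077 and XCP2 at chr1:7252111-7253747. Coordinates are those of TAIR10.1 and are equal to the ones in the deposited table for all 6 genes in it.

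RDL5 had a mean of 7.57 log2 CPM in *crr* -Pi and 9.14 in *crr* +Pi, and of 8.98 in Col-0 -Pi and 9.15 in Col-0 +Pi. The *crr* -Pi group stood alone at the low end, and the other 3 groups lay within 0.17 log2 units of each other. In CPM, the means correspond to 189 in *crr* -Pi and 566 in *crr* +Pi, against 505 in Col-0 -Pi and 569 in Col-0 +Pi. RDL5 was therefore 2.67-fold lower in *crr* than in Col-0 under -Pi (-1.42 log2) and differed by -0.01 log2 under +Pi. Within *crr* it was 2.99-fold lower under -Pi than under +Pi (-1.58 log2), while within Col-0 the difference was -0.17 log2. The low phosphate difference of *crr* minus that of Col-0 came to -1.41 log2. These are the values RDL5 was chosen for.

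**Figure D1:**
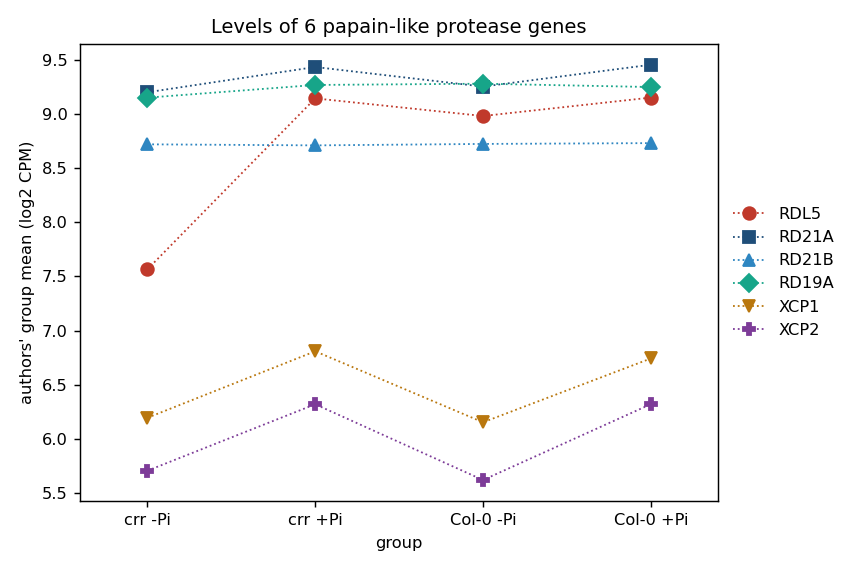
Levels of the 6 measured genes in the 4 groups, as the authors' group means in log2 CPM, with dotted lines to guide the eye. RDL5 is at 7.57 in *crr* -Pi and between 8.98 and 9.15 in the other groups, while XCP1 and XCP2 are lower in both -Pi groups.

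The other 5 measured members did not have this pattern. RD21A, a protease of the vacuole and of ER bodies that carries a granulin domain, had means of 9.20 in *crr* -Pi and 9.43 in *crr* +Pi, and of 9.25 in Col-0 -Pi and 9.45 in Col-0 +Pi. Both -Pi groups were below both +Pi groups, with a difference of -0.23 log2 in *crr* and -0.20 in Col-0. RD21B varied least, with means of 8.72 in *crr* -Pi, 8.71 in *crr* +Pi, 8.72 in Col-0 -Pi and 8.73 in Col-0 +Pi. RD19A, whose product is also known as a target of a bacterial effector, had 9.15 in *crr* -Pi and 9.27 in *crr* +Pi, against 9.28 in Col-0 -Pi and 9.25 in Col-0 +Pi. Its lowest group was *crr* -Pi, as for RDL5, at a difference of -0.13 log2 from Col-0 -Pi. XCP1 had 6.20 in *crr* -Pi and 6.81 in *crr* +Pi, and 6.15 in Col-0 -Pi and 6.74 in Col-0 +Pi. XCP2 had 5.71 in *crr* -Pi and 6.32 in *crr* +Pi, and 5.62 in Col-0 -Pi and 6.32 in Col-0 +Pi. Both xylem proteases were lower under -Pi in both genotypes. The difference was -0.61 log2 in *crr* for each, and in Col-0 it was -0.59 for XCP1 and -0.70 for XCP2.

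Set against the whole table, a difference of at least 2-fold between *crr* and Col-0 under -Pi was held by 1 of the 6 members, RDL5, and by 1.69% of all genes. Under +Pi it was held by none of the 6, and by 0.954% of all genes. Between -Pi and +Pi, RDL5 was the only member past 2-fold in *crr*, where 8.67% of all genes were, and no member was past it in Col-0, where 6.97% were. For the low phosphate difference of *crr* minus that of Col-0, again 1 of the 6 was past 2-fold, and 2.99% of all genes. Since RDL5 was chosen on these contrasts, nothing is read from its share. The other 5 members differed between *crr* and Col-0 by -0.13 to 0.09 log2 under -Pi and by -0.02 to 0.07 under +Pi, where the median of the absolute difference over all genes was 0.108 and 0.0866.

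The difference of RDL5 is set beside that of genes of like level as a description only. Since RDL5 was chosen for its low mean in *crr* -Pi, nothing is read from its place among them. Of all genes, 88 had a lower value of *crr* -Pi minus Col-0 -Pi than RDL5. Of the 711 genes whose average over the 4 groups lay within 1 log2 unit of that of RDL5 (8.71 log2 CPM), none did. In these 711 genes the middle 90% of the differences ran between -0.19 and 0.18 log2, and the lowest was -0.85, for the peroxidase gene PER23. Next came the major latex protein-like gene MLP34 at -0.72 and the peroxidase gene PER71 at -0.68. PER23, MLP34 and PER71 were named after their values were seen. Between Col-0 -Pi and Col-0 +Pi, RDL5 differed by -0.17 log2, PER23 by -0.38, MLP34 by -0.79 and PER71 by -0.64. For the low phosphate difference of *crr* minus that of Col-0 none of the 711 genes was below RDL5 either, and 1 of them had a lower value than RDL5 for *crr* -Pi minus *crr* +Pi.

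**Figure D2:**
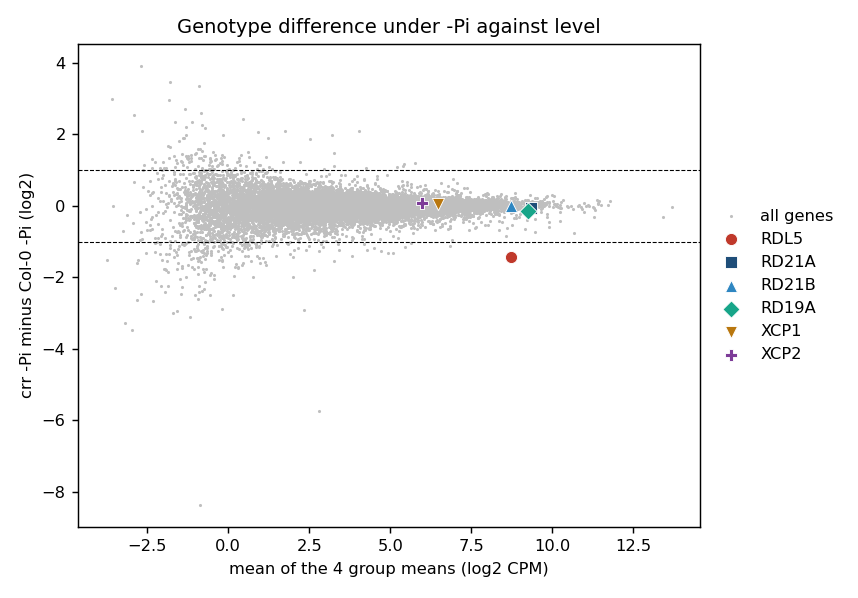
Difference between *crr* -Pi and Col-0 -Pi in log2 units, for all 20017 genes (grey) and the 6 measured members, against the average of the 4 group means in log2 CPM. Dashed lines mark 2-fold. RDL5, chosen for its low mean in *crr* -Pi, is at -1.42 below every other gene within 1 log2 unit of its level. The other 5 members lie between -0.13 and 0.09.

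Between genes, levels can be compared only per length, and here each level was divided by the kilobases of exon of the gene. On this scale of log2 CPM per kilobase, RD19A was at 8.40, RD21A at 8.26, RD21B at 7.69, RDL5 at 6.34, XCP1 at 5.70 and XCP2 at 5.24 in *crr* -Pi. In Col-0 -Pi the levels per kilobase were 8.53 for RD19A, 8.31 for RD21A, 7.76 for RDL5, 7.69 for RD21B, 5.65 for XCP1 and 5.16 for XCP2. RDL5 was thus the third of the 6 in Col-0 -Pi, just above RD21B, and the fourth in *crr* -Pi, below RD21B. In both +Pi groups it was the third as well, with 7.92 in *crr* +Pi and 7.93 in Col-0 +Pi. Without the spread between libraries it cannot be said whether neighbours in the order, such as RD19A and RD21A, differ. RDL5 has 2 annotated transcripts whose exons cover 2338 bases together, of which the transcript with the longer coding sequence has 1632. With that length its level per kilobase was 6.86 in *crr* -Pi and 8.27 in Col-0 -Pi, and its place in the order was the same.

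In the rest of the family, as over all genes, most genes differed little between the groups. Of 32 listed papain-like protease genes 22 were measured. Besides RDL5, only CEP1, a protease with an ER retention signal that acts in programmed cell death, was past 2-fold in any of the 4 comparisons. The shares of all genes past it were 8.67% between *crr* -Pi and *crr* +Pi and 6.97% between Col-0 -Pi and Col-0 +Pi. Between the genotypes they were 1.69% under -Pi and 0.954% under +Pi, so nothing is read from the count. CEP1 had 2.73 log2 CPM in *crr* -Pi and 2.00 in *crr* +Pi, and 3.15 in Col-0 -Pi and 1.97 in Col-0 +Pi. It was therefore higher under -Pi by 0.73 log2 in *crr* and by 1.18 in Col-0, the opposite sign to RDL5. Between *crr* -Pi and Col-0 -Pi, 15 of the 22 genes had a negative difference, with a median of -0.05 log2, where 51.6% of all genes had a negative difference and the median was -0.01. Leaving out the 7 members, 11 of 16 were negative, with a median of -0.06. The lowest differences after RDL5 in that comparison were those of CATHB1, a cathepsin B-like protease, at -0.56 log2, CEP3 at -0.48, AT4G36880 (CP1 in the table) at -0.43 and CEP1 at -0.42. AT4G36880 had 3.69 log2 CPM in *crr* -Pi and 3.80 in *crr* +Pi, and 4.11 in Col-0 -Pi and 3.55 in Col-0 +Pi, so that its low phosphate difference of *crr* minus that of Col-0 was -0.68 log2. For CATHB1 this difference of differences was -0.98, at low levels with a mean of at most 1.76 log2 CPM in each group. RDL2 and RDL3, which like RDL4 and RDL5 are named after RD21A, differed by -0.07 and -0.02 between *crr* -Pi and Col-0 -Pi, RD21C by 0.06, and AALP, an aleurain-like protease of the vacuole, by -0.08. The highest value was that of CEP2, 0.30. CATHB1, CEP3, AT4G36880, RDL2, RDL3, RD21C, AALP and CEP2 were named after their values were seen.

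**Figure D3:**
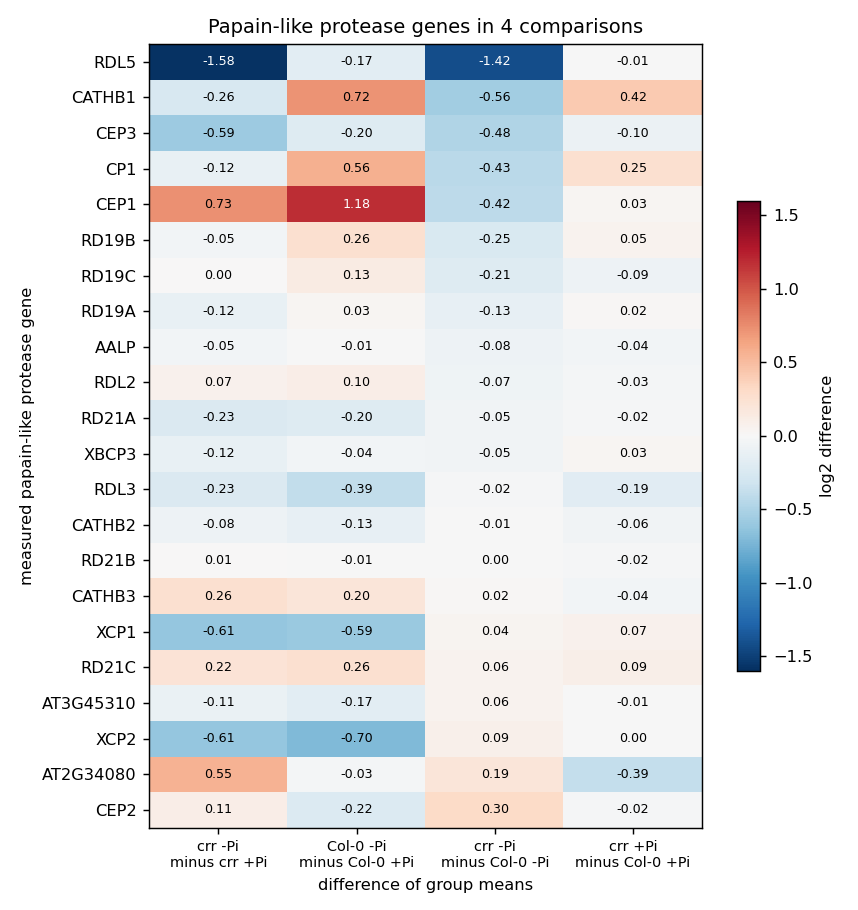
Differences of group means in log2 units for the 22 measured papain-like protease genes, ordered by *crr* -Pi minus Col-0 -Pi, with names as in the deposited table. RDL5 has -1.58 and -1.42 in the comparisons that hold *crr* -Pi, and CEP1 has 1.18 between Col-0 -Pi and Col-0 +Pi.

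Genes of the proteins that inhibit or activate these proteases were not past 2-fold in any comparison. Few of all genes were either, 1.69% between *crr* -Pi and Col-0 -Pi and 0.954% between the +Pi groups. Between -Pi and +Pi it was 8.67% of all genes in *crr* and 6.97% in Col-0, so nothing is read from this count. Of 9 listed inhibitors 8 were measured, 7 cystatins and SERPIN1. SERPIN1, the known inhibitor of RD21A, had 5.96 log2 CPM in *crr* -Pi and 6.10 in *crr* +Pi, against 6.09 in both Col-0 groups. The largest difference was that of the cystatin CYS2, named after its value was seen, -0.91 log2 between *crr* -Pi and *crr* +Pi, at a low level of -0.60 in *crr* -Pi and 0.31 in *crr* +Pi. Of the 4 vacuolar processing enzymes, proteases that mature other vacuolar proteins, 3 were measured, and their differences between *crr* -Pi and Col-0 -Pi ran between -0.30 and 0.00 log2.

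XCP1 and XCP2 had the same sign as most other xylem genes under low phosphate. All 13 listed xylem genes were measured, and 13 of 13 had a lower mean in *crr* -Pi than in *crr* +Pi, with a median of -0.34 log2, beside 48.6% of all genes and a median of 0.01. In Col-0, 11 of 13 had a lower mean under -Pi, with a median of -0.42, beside 45.7% of all genes and a median of 0.02. None was past 2-fold in either genotype, beside 8.67% of all genes in *crr* and 6.97% in Col-0. The laccase LAC4 of lignin polymerisation had 5.43 log2 CPM in *crr* -Pi and 6.34 in *crr* +Pi, and 5.41 in Col-0 -Pi and 6.12 in Col-0 +Pi. LAC17, a further laccase of lignin, had a difference of -0.71 log2 in *crr* and -0.94 in Col-0 between -Pi and +Pi. XSP1, a xylem serine protease, had -0.83 in *crr* and -0.40 in Col-0. MYB46, a regulator of secondary walls, had -0.28 in *crr* and -0.71 in Col-0. VND6 and the nuclease gene BFN1 were the exceptions in Col-0, where they were higher under -Pi by 0.54 and 0.44 log2, and they were named after their values were seen. Summed over the 13 genes the level was 252 CPM in *crr* -Pi and 368 in *crr* +Pi, and 251 in Col-0 -Pi and 348 in Col-0 +Pi. The part of a lower share of xylem in the values of XCP1 and XCP2 was not tested.

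**Figure D4:**
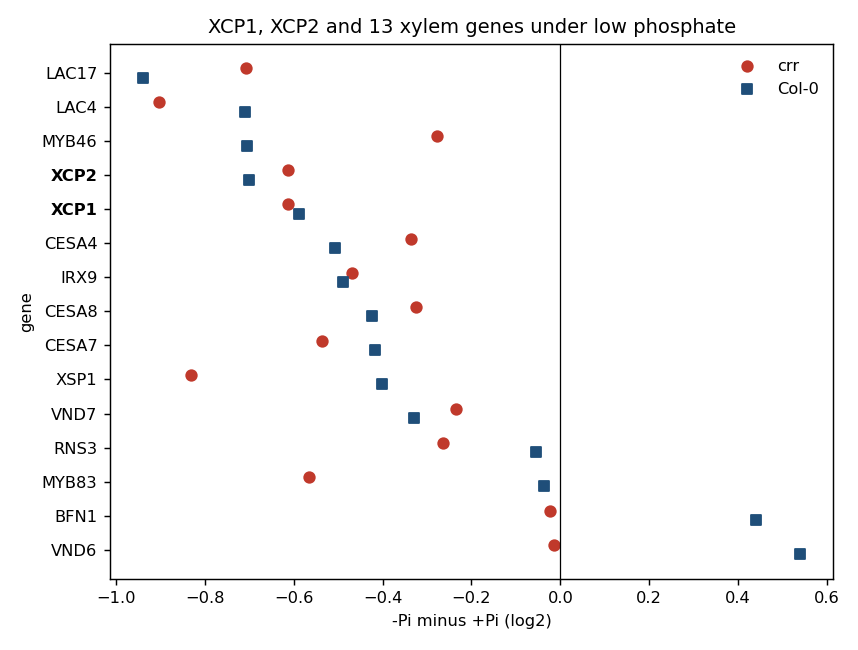
Difference of -Pi minus +Pi in log2 units for XCP1, XCP2 and the 13 listed xylem genes, in *crr* (circles) and in Col-0 (squares). XCP1 and XCP2 lie between -0.70 and -0.59 in both genotypes, and VND6 and BFN1 are above 0 in Col-0.

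The desiccation genes were mostly lower under -Pi in both genotypes. Of 17 listed genes of desiccation and abscisic acid 13 were measured. Of these, 10 had a lower mean under -Pi in each genotype, with a median of -0.69 log2 in *crr* and -0.50 in Col-0. Of all genes 48.6% were lower under -Pi in *crr* and 45.7% in Col-0, with medians of 0.01 and 0.02. COR47, a dehydrin, had a difference of -0.76 in *crr* and -0.98 in Col-0. RD29A, a widely used reporter gene of drought and cold, had -0.88 in *crr* and -0.92 in Col-0. RD26, a NAC transcription factor, had -1.12 in *crr* and -1.23 in Col-0. The exceptions in both genotypes were RD22, ERD1 and ABI2, named after their values were seen. RD22 was higher under -Pi by 0.05 log2 in *crr* and by 0.75 in Col-0. ERD1 was higher by 0.06 and 0.10 and ABI2 by 0.10 and 0.03, in the same order. Between *crr* -Pi and Col-0 -Pi the median of the 13 was -0.01 log2. Of the 13, 1 was past 2-fold in this comparison, beside 1.69% of all genes. It was NCED3, of abscisic acid synthesis, which was higher in *crr* -Pi by 1.37 log2. NCED3 was at 1.06 log2 CPM in *crr* -Pi and 1.84 in *crr* +Pi, and at -0.31 in Col-0 -Pi and 2.02 in Col-0 +Pi. Of the 8 genes of the ER body, a compartment of roots that holds beta-glucosidases and RD21A, none was past 2-fold in any comparison. Between -Pi and +Pi 8.67% of all genes were past 2-fold in *crr* and 6.97% in Col-0. Between *crr* and Col-0 it was 1.69% under -Pi and 0.954% under +Pi, so nothing is read from this count. PYK10, its main beta-glucosidase, had a difference of -0.83 log2 in *crr* and -0.55 in Col-0. BGLU21, a related enzyme, was higher under -Pi by 0.90 in *crr* and by 0.82 in Col-0.

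The genes on both sides of RDL5 did not share its difference. The 5 measured genes on each side of the pair RDL4 and RDL5 had differences between *crr* -Pi and Col-0 -Pi from -0.12 to 0.39 log2. None of these neighbours was past 2-fold in any comparison. Over all genes 1.69% were past 2-fold between *crr* -Pi and Col-0 -Pi, and 0.954% between the +Pi groups. Between -Pi and +Pi the share was 8.67% in *crr* and 6.97% in Col-0. Nothing is therefore read from the count of neighbours. The nearest measured gene before the pair, AT4G11300, differed by -0.03 and the nearest behind it, the protein kinase gene MPK5, by 0.09. ACS6, of ethylene synthesis, and PER39, a peroxidase gene, each differed by 0.14, and SGT1B, of disease resistance, by 0.00. AT4G11270 had the lowest value, -0.12, and RHA1B and RHA1A, which encode RING proteins, had the highest, 0.39 and 0.38. AT4G11350 and AT4G11380 differed by 0.19 and 0.10. No annotated gene overlaps RDL5. XCP1 overlaps AT4G35360 on the other strand, which differed by 0.22 log2 between *crr* -Pi and *crr* +Pi and by 0.18 between Col-0 -Pi and Col-0 +Pi, the opposite sign to XCP1.

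The 250 bases before the annotated start of RDL5, XCP1 and XCP2 are shown because these 3 genes differ most between the groups, RDL5 in *crr* -Pi and the pair with phosphate. They run from 5' to 3' on the strand of the gene, in TAIR10.1 from RefSeq, at chr4:6886916-6887165 for RDL5, chr4:16810232-16810481 for XCP1 and chr1:7251861-7252110 for XCP2. Capitals mark the motifs found.
RDL5: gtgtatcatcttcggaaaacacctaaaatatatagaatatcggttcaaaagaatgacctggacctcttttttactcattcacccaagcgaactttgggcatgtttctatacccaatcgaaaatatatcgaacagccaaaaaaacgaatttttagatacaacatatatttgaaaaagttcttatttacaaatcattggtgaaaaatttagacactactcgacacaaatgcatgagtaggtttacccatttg
XCP1: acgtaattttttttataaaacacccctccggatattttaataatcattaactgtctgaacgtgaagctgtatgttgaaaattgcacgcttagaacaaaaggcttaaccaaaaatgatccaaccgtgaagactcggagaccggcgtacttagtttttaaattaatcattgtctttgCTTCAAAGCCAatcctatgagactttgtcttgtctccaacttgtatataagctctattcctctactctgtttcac
XCP2: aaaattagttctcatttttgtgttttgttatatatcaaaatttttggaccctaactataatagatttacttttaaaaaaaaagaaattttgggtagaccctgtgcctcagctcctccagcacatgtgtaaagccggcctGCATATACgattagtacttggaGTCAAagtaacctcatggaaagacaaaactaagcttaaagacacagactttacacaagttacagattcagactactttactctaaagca
The windows were searched on both strands for P1BS (GNATATNC), the site of PHR1 in phosphate-responsive genes, the core of the W-box (TTGAC) of WRKY factors, the G-box (CACGTG), and TERE (CTTNAAAGCNA), an element of genes of xylem vessels. No match overlapped another. RDL5 held none of the 4 in this window. XCP1 held TERE 75 bases before its start, and XCP2 held P1BS at 111 and the core of the W-box at 89 bases before it. RD21B held the core of the W-box at 86 and at 6 bases before its start, and RDL4, RD21A and RD19A held none of the 4. The window before RD19A overlaps another annotated gene. Over the windows of the same length of 27443 protein-coding genes, TERE was in 0.368%, P1BS in 5.46%, the G-box in 6.49% and the core of the W-box in 44.9%. A match is a description of the sequence.

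The genes most like RDL5 in pattern were found by the distance between profiles of the 4 group means, each centred on the gene's own mean. The search covered 18383 genes with a highest mean of at least 1 log2 CPM. It used the same means that RDL5 was chosen for, so the list is a description only. A gene passes this limit through its highest group, which lets in genes that are low in *crr* -Pi. The 10 nearest were, in order, the F-box gene AT5G24040, the lectin-like gene AT3G16530, SEN1 (STR15 in the table), PORB, AT1G49750, ORP4C, BGLU7, the O-methyltransferase gene AT1G77520, RTL1 and the exostosin family gene AT5G11610. Their distances ran from 0.116 to 0.325 log2 units. AT3G16530 had 4.02 log2 CPM in *crr* -Pi and 5.42 in *crr* +Pi, and 5.33 in Col-0 -Pi and 5.60 in Col-0 +Pi. SEN1, known as a gene of senescence and darkness, differed by -1.65 log2 between *crr* -Pi and Col-0 -Pi, and by -0.12 under +Pi. PORB, an enzyme of chlorophyll synthesis, differed by -1.16 and -0.13, and the beta-glucosidase gene BGLU7 by -1.23 and -0.07, in the same order. Only 3 of the 10 averaged above 3 log2 CPM, against 8.71 for RDL5. In *crr* -Pi, AT5G24040 was at -0.48 log2 CPM and ORP4C at -0.90, and both passed the limit through other groups. With 4 points a profile, many genes can be close to a given one, and the list depends on the measure of likeness.

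**Figure D5:**
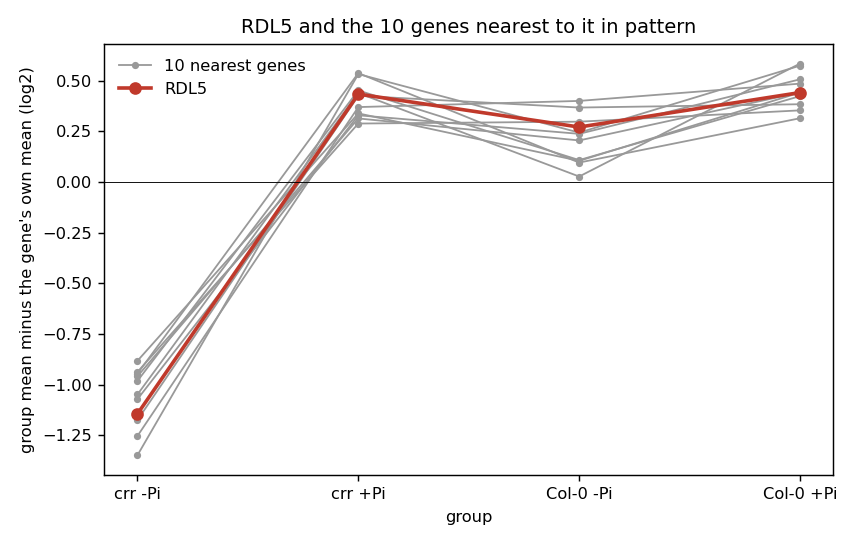
Profiles of RDL5 and of the 10 genes nearest to it over the 4 groups, as group mean minus the gene's own mean in log2 units. All 11 are lowest in *crr* -Pi, which follows from the choice of genes near to RDL5, so nothing is read from it.

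Other cell types were followed with listed markers. All 9 root markers were measured, among them CASP1 and ESB1 of the endodermis and RHD6 and COBL9 of root hairs. All 9 had a higher mean in *crr* -Pi than in Col-0 -Pi, by a median of 0.22 log2 and a range of 0.03 to 0.49. Over all genes, 9695 of 20017 had a higher mean in *crr* -Pi than in Col-0 -Pi, with a median of -0.01. Of 8 genes of green tissue 7 were measured, at low levels with a sum of 40.1 CPM in *crr* -Pi and 92.5 in *crr* +Pi, against 51.9 in Col-0 -Pi and 85.0 in Col-0 +Pi. Between *crr* -Pi and Col-0 -Pi 6 of the 7 were lower, with a median of -0.50 log2, in the direction of RDL5. Of all genes 51.6% were lower in this comparison, with a median of -0.01. RBCS1A differed by -0.86, GAPA by -0.75 and LHCA1 by -0.64 log2, and LHCB2.1 was the exception with 0.30. PSBO1, the most abundant of the 7, differed by -0.01, with 4.24 log2 CPM in *crr* -Pi and 5.46 in *crr* +Pi, and 4.26 in Col-0 -Pi and 5.44 in Col-0 +Pi. LHCB2.1 and PSBO1 were named after their values were seen. PRK had 0.48 log2 CPM in *crr* -Pi and 0.13 in *crr* +Pi, and 0.93 in Col-0 -Pi and -0.78 in Col-0 +Pi. No green tissue marker was at the lowest value of the table. The part of green tissue, or of other cells, in the values of RDL5 was not tested.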

How the data were processed

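RNA sequencing was done on 12 libraries of roots, 3 in each of 4 groups taken from the sample labels. Per the submitters' processing notes and the study's methods, reads were trimmed with cutadapt 1.8, aligned to TAIR10 with STAR 2.5.3a and counted per gene with HTSeq 0.9.1; RSEM 1.2.31 is also listed. The authors computed log2 CPM, with library sizes scaled by TMM, in edgeR 3.24.3 under R 3.5.3, and deposited the mean log2 CPM of each group. For the strand setting and the prior count the sources used here give nothing, and the read numbers per library that the study gives were not used here. The authors' 5 comparison tables hold log2 fold changes, p-values, adjusted p-values, F statistics and signed fold changes, and none was used.

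Differences of the deposited group means were computed with pandas 2.3.3 and numpy 2.4.6 for all 20017 genes, with no filter, pseudocount or test. Past 2-fold means at least 1 log2 unit. Sequences were read from the TAIR10.1 reference with Biopython 1.88, and proteins were aligned with BLOSUM62. The functions were tested on simulated data. Named were all members and every measured family gene, inhibitor or processing enzyme past 2-fold. Also named were at most 4 genes of each other list with SERPIN1 added, the 10 genes most like RDL5, 5 neighbours on each side and CRR. Genes named outside this rule, after their values were seen, are marked as such in the text. CASP1, ESB1 and AT4G35360, the gene that overlaps XCP1, also lie outside this rule and are not marked. Members and lists were chosen with earlier results of these data known. Other scales, centrings, limits, filters, memberships and measures of likeness were tried.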

Additional observations from a re-analysis of the deposited data

How the results depend on the processing

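Differences of the 6 measured members were recomputed on the log2(CPM + 1) scale and, for the 4 pairwise comparisons, after centring on the median over all genes. All 54 recomputed values moved by less than 0.1 log2 units, and none past 2-fold changed sign. The rank of RDL5 by level was the same per kilobase of exon and, an alternative chosen after seeing the data, per kilobase of 1 transcript, at 4 in *crr* -Pi and 3 in each other group.

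With a limit of 1.5-fold, 18.1% of all genes passed between *crr* -Pi and *crr* +Pi, 15.6% between Col-0 -Pi and Col-0 +Pi, 5.71% between *crr* -Pi and Col-0 -Pi, 3.37% between *crr* +Pi and Col-0 +Pi and 8.53% for the low phosphate difference of *crr* minus that of Col-0. With only genes whose highest mean was at least 1 log2 CPM, 0.62% passed 2-fold between *crr* -Pi and Col-0 -Pi, 0.212% between *crr* +Pi and Col-0 +Pi and 1.17% for the difference of differences. Papain-like protease genes past 1.5-fold numbered 5 between *crr* -Pi and *crr* +Pi, XCP1 and XCP2 included, 4 between Col-0 -Pi and Col-0 +Pi and 3 for the difference of differences. With membership by description, 0 were past 2-fold between Col-0 -Pi and Col-0 +Pi, since the description of CEP1 does not hold the words searched. Of the 10 genes most like RDL5, 0 were among the first 10 by Pearson correlation and 6 among the first 10 with no filter on level.

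No paired analysis was possible because only group means were used, and leaving out each library in turn was not run for the same reason. The differences therefore carry no error, and none is shown to exceed the spread between replicates. The deposited means hold no depth, so no interval for counting error is given.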
